A study of Mus musculus with 24 samples.

Results

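A set of 9 genes that define B lymphocytes or carry their antigen receptor signal (Cd79a, Cd79b, Ms4a1, Blnk, Pou2af1, Pax5, Cr2, Fcer2a and Cd22) were followed in mouse lung. Every probe set that the platform annotation assigns to 1 of these genes alone was taken, which gave 13 probe sets of the 9 genes, of 45037 probe sets and 18193 genes measured. Of the 13, 12 lay on the array called set A here and 1 on set B, and 11, covering all 9 genes, passed the filter on low signal. The other 2, the second probe sets of Pax5 and Fcer2a, are given separately. The rule rests on annotation and uses no measured value.

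The lungs came from wild-type (WT) mice and from a strain that lacks interleukin 13, a type 2 cytokine, and is called IL-13 KO. The treatment label is HDM, by its usual reading the allergen house dust mite, or PBS, the saline control. There were 4 groups of 3 samples: WT PBS, WT HDM, KO PBS and KO HDM. By the sample titles, each of the 12 samples was hybridised to both array sets. This pairing rests on the titles alone, and it bears on the single set B probe set, of Pax5. The background strain, the construction of the knockout, age, dose, route and schedule are not given in the sources used here. Nothing in the labels says whether a group's samples were separate animals, so p-values measure only the spread between these samples, which may be technical. The tissue label was checked on 3 lung epithelial genes, whose signals over the 12 samples ran from 3790 to 7100 for Sftpc, 4260 to 6060 for Scgb1a1 and 10000 to 22600 for Ager.

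B cells recognise antigen through membrane immunoglobulin, which signals through the paired chains CD79A and CD79B, the kinase SYK and the adaptor BLNK. Coreceptors set the strength of that signal: CR2 (CD21) binds complement fragments and enhances it, and CD22 recruits phosphatases that dampen it. MS4A1 (CD20) is the surface protein by which B cells are usually counted. FCER2A (CD23) is the low-affinity receptor for IgE and is induced on B cells by interleukin 4 acting through the transcription factor STAT6. PAX5 maintains B cell identity and is lost in plasma cells, whereas the coactivator POU2AF1 is kept. In allergic lung B cells accumulate around airways and vessels, and plasma cells secrete antibody there. BLNK is also made by macrophages.

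RefSeq promoter entries (build GRCm38.p6) were matched for 7 of the 9 genes, with 9 entries in all because Fcer2a has 3. The 250 bases before 4 start sites are shown, 5' to 3' on the strand of the gene: Cd79a at chr7:24897247-24897496 on the plus strand, Blnk at chr19:40994222-40994471, Cd22 at chr7:30879029-30879278 and Fcer2a at chr8:3690862-3691111 on the minus strand. They were chosen because they hold letters that B cell or interleukin 4 regulated transcription factors are known to bind, and these letters are in capitals. In Cd79a the capitals mark an E-box (CAGGTG, or CACCTG on the other strand), in Blnk an E-box and the octamer (ATGCAAAT, or ATTTGCAT on the other strand) read by POU factors with POU2AF1, in Cd22 an E-box and the palindrome TCCCNNGGGA of the EBF type, and in Fcer2a 2 E-boxes and the palindrome TTCNNNNGAA of the STAT6 type.
Cd79a: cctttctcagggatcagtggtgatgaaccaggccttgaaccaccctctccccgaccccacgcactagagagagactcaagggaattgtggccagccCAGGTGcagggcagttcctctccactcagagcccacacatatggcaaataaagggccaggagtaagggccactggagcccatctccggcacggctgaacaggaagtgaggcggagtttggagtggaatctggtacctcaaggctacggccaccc
Blnk: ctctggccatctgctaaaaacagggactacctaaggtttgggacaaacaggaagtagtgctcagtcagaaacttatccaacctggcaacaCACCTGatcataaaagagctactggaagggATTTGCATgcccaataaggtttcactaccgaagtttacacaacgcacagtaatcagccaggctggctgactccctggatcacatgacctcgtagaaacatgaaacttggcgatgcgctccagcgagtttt
Cd22: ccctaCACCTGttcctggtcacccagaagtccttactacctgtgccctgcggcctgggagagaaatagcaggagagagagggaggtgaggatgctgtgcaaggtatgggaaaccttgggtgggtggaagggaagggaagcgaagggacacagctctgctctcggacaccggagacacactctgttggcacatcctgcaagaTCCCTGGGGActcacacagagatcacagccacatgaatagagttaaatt
Fcer2a: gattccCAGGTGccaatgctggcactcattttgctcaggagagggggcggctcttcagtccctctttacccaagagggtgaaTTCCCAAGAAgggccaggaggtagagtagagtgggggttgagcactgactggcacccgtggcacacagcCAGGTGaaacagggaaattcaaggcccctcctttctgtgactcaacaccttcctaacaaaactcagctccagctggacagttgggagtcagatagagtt

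Both strands were searched, and the marked motifs do not overlap each other. Of 32851 mouse promoter windows of the same length, 1.6% held the octamer, 5.85% the STAT6-type palindrome, 0.779% the EBF-type palindrome and 17.2% the E-box. Among the 9 member entries the first 3 motifs were each found in 1, and the E-box in 5 (Cr2, Cd79a, Cd22, Fcer2a and Blnk). A match is a description of letters and no measurement of binding.

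After HDM most of these genes had higher signal in both genotypes. In WT lung 8 of the 11 tested probe sets were called higher, from 7 of the 9 genes, and none lower. In KO lung 6 of 11 were called higher, from 5 genes (Cd79b, Ms4a1, Blnk, Pou2af1 and Cd22). A call means a limma p-value under 0.05 after Benjamini-Hochberg adjustment over all 31526 probe sets tested. Over all of these, 3.84% were called higher in WT and 4.24% in KO. The 5' to 3' actin ratio, a sign of RNA quality, was lower in KO HDM (0.464 to 0.656 on set A) than in KO PBS (0.748 to 0.854), without overlap, and its part in the KO counts was not tested. Without the 2 samples with the lowest ratio (WT PBS replicate 2 and KO HDM replicate 1), 6 of 12 tested probe sets were called in WT and 5 of 12 in KO. Calls over all probe sets, in either direction, then went from 2426 to 1408 in WT and from 2698 to 1781 in KO. The median log2 fold change of the 11 was 1.23 in WT and 0.83 in KO, against -0.01 and 0 over all probe sets. Without overlap and higher after HDM were 10 of 11 member probe sets in WT and 9 of 11 in KO, against 11.1% and 14.5% of all probe sets. In these bulk samples more B cells and more RNA per B cell cannot be told apart.

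**Figure D1:**
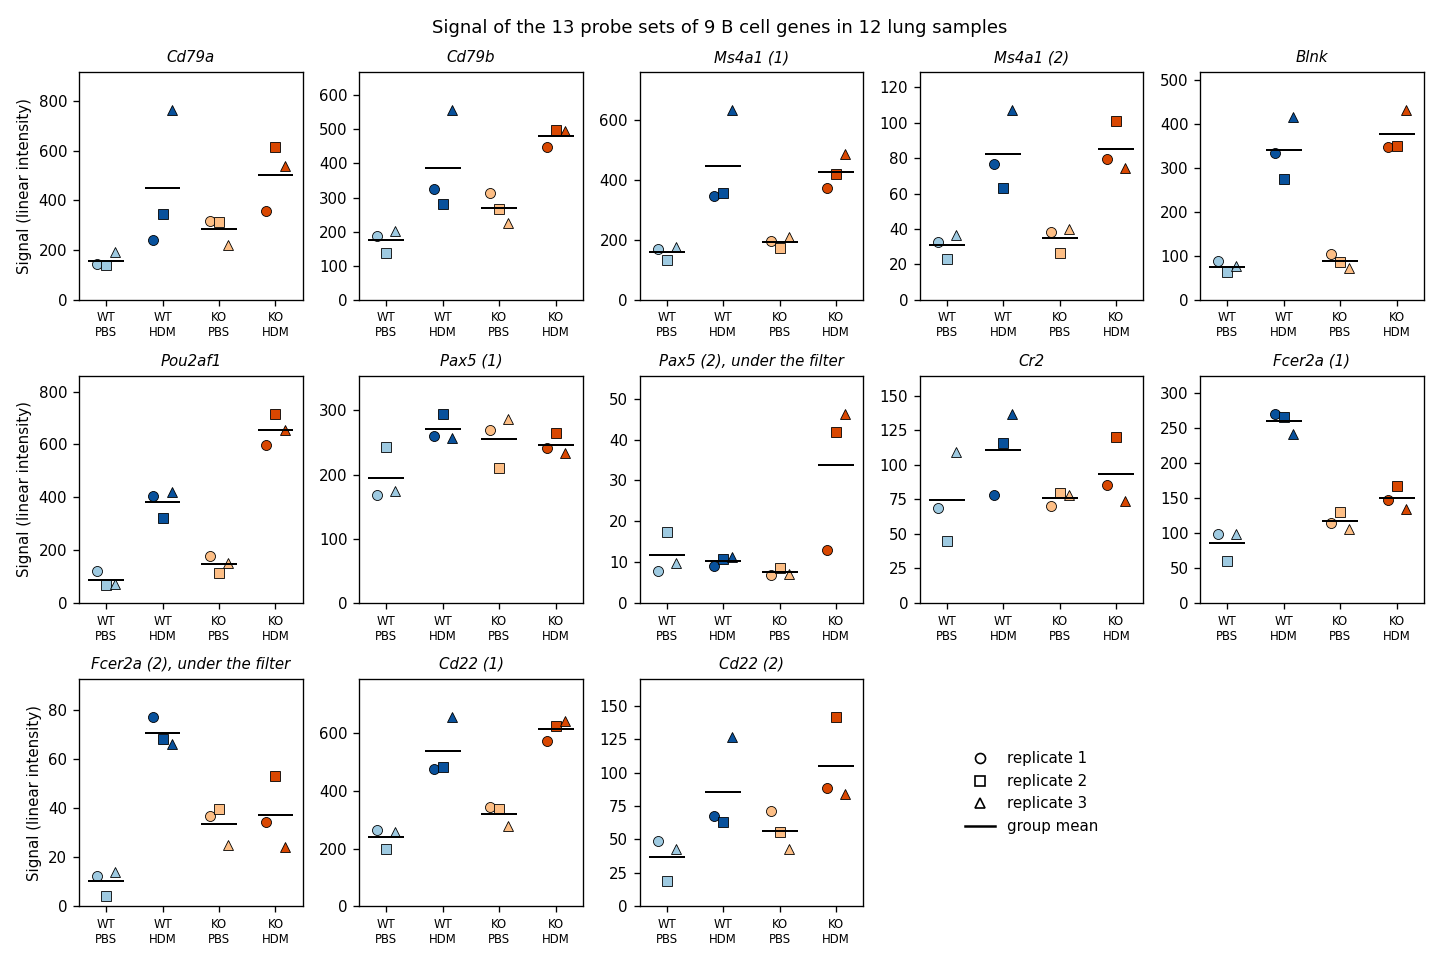
Signal (linear intensity as deposited, y axis from 0) of the 13 probe sets in the 12 samples, with groups on the x axis, 1 symbol shape per replicate number and a bar at the group mean. Cd79a, Cd79b and Ms4a1 peak in WT HDM replicate 3, Blnk and Pou2af1 separate HDM from PBS in both genotypes, and Fcer2a is highest in the WT HDM samples.

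Both receptor chains rose in WT lung, and Cd79b also in KO. In the order of replicates 1, 2 and 3, Cd79a (1418830_at) had signals of 144, 138 and 191 in WT PBS, 239, 346 and 762 in WT HDM, 318, 312 and 221 in KO PBS, and 359, 614 and 537 in KO HDM. HDM samples lay above PBS samples of their own genotype without overlap, and WT HDM replicate 3 stood far above the other WT HDM samples. Means were 158 ± 28.8 and 449 ± 277 (SD, n = 3) in WT and 284 ± 54.5 and 503 ± 131 in KO. Cd79a rose by 1.32 ± 0.34 (log2 ± SE) in WT, which is 2.49-fold (limma, adjusted p = 0.036), and in KO the difference of 0.80 ± 0.34 was not called (0.19). Without WT HDM replicate 3 the WT difference was 0.85 and was not called (0.10), and the call was also lost without WT HDM replicate 2 (0.063) or any single WT PBS sample (0.052 to 0.10), without the filter (0.050) or the eBayes trend (0.053).

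Cd79b (1417640_at), the partner chain, had 187, 137 and 203 in WT PBS, 326, 282 and 556 in WT HDM, 313, 267 and 226 in KO PBS, and 448, 498 and 495 in KO HDM. Its groups were again apart, and KO HDM samples were close together. It rose by 1.07 ± 0.23 in WT (limma, adjusted p = 0.013) and by 0.83 ± 0.23 in KO (0.042). The KO call was lost without WT PBS replicate 1 or any single KO sample (0.050 to 0.14), without the filter (0.056) or the eBayes trend (0.060), and the WT call without WT PBS replicate 2 (0.052).

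Ms4a1, the CD20 gene, has 2 probe sets and both were called in both genotypes. The first (1423226_at) had 168, 134 and 175 in WT PBS, 345, 357 and 631 in WT HDM, 195, 171 and 209 in KO PBS, and 373, 419 and 487 in KO HDM. It rose by 1.39 ± 0.21 in WT (limma, adjusted p = 0.0016) and by 1.12 ± 0.21 in KO (0.0064). The second (1450912_at) was dimmer, with group means of 30.7 ± 7.03 and 82.2 ± 22.1 in WT and 34.9 ± 7.49 and 85.2 ± 14.2 in KO (SD, n = 3). Its rises were 1.23 ± 0.25 (adjusted p = 0.0088, limma) and 1.15 ± 0.25 (0.013), and the latter lost its call when KO PBS replicate 2 (0.051) or KO HDM replicate 2 (0.058) was left out.

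Blnk and Pou2af1 had the largest rises of the members that passed the filter. Blnk (1451780_at) had 87.4, 62.3 and 76.4 in WT PBS, 335, 274 and 416 in WT HDM, 105, 86.6 and 71.7 in KO PBS, and 348, 349 and 431 in KO HDM. Every HDM sample of either genotype exceeded every PBS sample. The rise was 2.07 ± 0.20 in WT (4.21-fold; limma, adjusted p = 4.8e-05) and 2.02 ± 0.20 in KO (4.07-fold; 7.2e-05). Macrophage genes, whose cells also make BLNK, rose in the same samples: 9 of 14 were called higher in WT and 6 of 14 in KO, with Itgax (CD11c) up by 2.34 and 1.42, Clec7a by 2 and 1.85, Cd68 by 1.76 and 1.57 and Mrc1 by 1.68 and 1.63. Others of the list stayed near level or fell in a genotype, without a lower call. Mean Lyz2 signal after PBS and HDM was 5110 and 4470 in WT, and 4770 and 5120 in KO. Mertk had 207 and 216 in WT and 190 and 179 in KO, and Siglecf 28.4 and 30.8 in WT and 36 and 37.1 in KO. The summed signal of the macrophage list went from 8100 to 8660 in WT PBS to 11000 to 13600 in WT HDM, and from 7310 to 9320 in KO PBS to 11900 to 12900 in KO HDM. The part of macrophages in the Blnk result was not tested.

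Pou2af1 (1416957_at), the coactivator retained by plasma cells, had 123, 68.5 and 72 in WT PBS, 405, 323 and 419 in WT HDM, 176, 115 and 150 in KO PBS, and 598, 717 and 654 in KO HDM. All 3 KO HDM samples lay above all 3 WT HDM samples. It rose by 2.07 ± 0.22 in WT and 2.12 ± 0.22 in KO (limma, adjusted p = 1e-04 in both). KO minus WT was 0.77 after HDM (95% interval 0.31 to 1.24) and 0.72 after PBS (0.26 to 1.19), neither called (adjusted p = 0.23 and 0.52).

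Pax5 was measured on a probe set of set B and a dim one of set A, and neither was called higher in WT. On set B (1454401_at) the signals were 168, 243 and 174 in WT PBS, 260, 295 and 257 in WT HDM, 269, 210 and 286 in KO PBS, and 242, 265 and 233 in KO HDM. The WT groups were apart and the KO groups overlapped, with differences of 0.47 ± 0.16 in WT (limma, adjusted p = 0.11) and -0.03 ± 0.16 in KO (0.93). Without WT PBS replicate 2 the WT difference was 0.63 and was called (0.039). On set A (1421765_at) the signal was 6.76 to 17.4 in every sample of the other 3 groups, and 13, 41.8 and 46.4 in KO HDM. Fitted without the filter, this probe set was called in KO (1.37 ± 0.33, limma adjusted p = 0.033) and had -0.08 ± 0.33 in WT (0.95). Only the dim probe set was called, in KO alone, and the difference between genotypes was not called for either (interaction 1.45 and -0.50, adjusted p = 0.77 and 0.87).

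Cr2 (1425289_a_at), the complement receptor, was not called in either genotype. Its signals were 68.6, 44.8 and 109 in WT PBS, 78, 116 and 137 in WT HDM, 70, 79.6 and 77.9 in KO PBS, and 85.4, 120 and 73.5 in KO HDM. HDM and PBS samples overlapped in both. The differences were 0.58 with a 95% interval of -0.07 to 1.22 in WT (limma, adjusted p = 0.31) and 0.25 with -0.40 to 0.89 in KO (0.68), so a rise as large as that of Cd79b in WT lies inside the first interval and outside the second.

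Cd22, the inhibitory coreceptor, was called on its brighter probe set in both genotypes. That probe set (1419768_at) had 266, 197 and 257 in WT PBS, 475, 482 and 658 in WT HDM, 343, 337 and 280 in KO PBS, and 574, 626 and 642 in KO HDM, with no overlap between treatments. The rises were 1.14 ± 0.16 in WT (limma, adjusted p = 0.00082) and 0.93 ± 0.16 in KO (0.0032). The dimmer one (1419769_at) had means of 37 ± 16 and 85.8 ± 35.6 in WT and 56.5 ± 14.1 and 105 ± 32.4 in KO (SD, n = 3). Its differences of 1.09 ± 0.35 and 0.81 ± 0.35 were of similar size with a larger error and were not called (adjusted p = 0.082 and 0.19, limma).

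Fcer2a, the CD23 gene, was called in WT and not in KO. Its brighter probe set (1422122_at) had 98.2, 59.8 and 99.3 in WT PBS, 271, 266 and 242 in WT HDM, 114, 130 and 106 in KO PBS, and 148, 168 and 135 in KO HDM. The WT HDM samples were the highest 3 of the 12, and the KO HDM samples came next, above both PBS groups. Fcer2a rose by 1.55 ± 0.19 in WT, which is 2.93-fold (limma, adjusted p = 0.00038), and the KO difference of 0.35 ± 0.19 (95% interval -0.07 to 0.76), or 1.27-fold, was not called (0.31). The difference between those effects, the interaction, was -1.21 ± 0.27 (KO effect minus WT effect, 95% interval -1.79 to -0.62). Its unadjusted p was 0.00069 and its adjusted p 0.31 (limma), so it was not called, and over 23 alternative settings it ran from -1.79 to -0.89 (adjusted p = 0.19 to 0.67).

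The second Fcer2a probe set (1451713_a_at) had its filter value, 31.5, just under the limit of 32 for set A. Its signals were 12.4, 4.13 and 14.1 in WT PBS, 77.4, 68.2 and 66.1 in WT HDM, 36.7, 39.5 and 24.8 in KO PBS, and 34.2, 53.2 and 24.2 in KO HDM. Again the WT HDM samples were the highest, and here the KO groups overlapped. Fitted without the filter, it rose by 2.22 ± 0.31 in WT (limma, adjusted p = 0.0014) and had 0.09 ± 0.31 in KO (0.92), with an interaction of -2.14 ± 0.44 (95% interval -3.10 to -1.17, adjusted p = 0.24). Both probe sets had higher means in KO than WT after PBS (0.44 ± 0.19 and 1.28 ± 0.31) and lower means after HDM (-0.76 ± 0.19 and -0.86 ± 0.31), without overlap and without a call (adjusted p = 0.70 and 0.46 after PBS, 0.16 and 0.50 after HDM). These comparisons reuse the samples of the HDM comparisons. Without WT PBS replicate 2 the brighter probe set was called lower in KO after HDM (-0.76, limma adjusted p = 0.048). That sample takes no part in this difference, which was -0.76 with it as well. It enters through the spread that the 4 groups share in the fit.

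**Figure D2:**
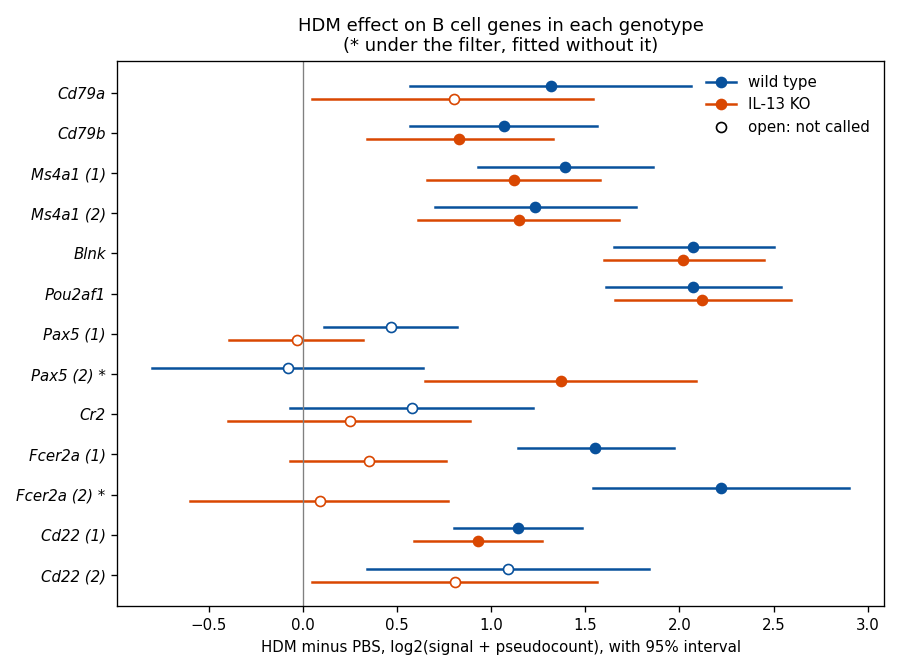
Difference between HDM and PBS samples on the log2(signal + pseudocount) scale (x axis) for each probe set (y axis), in WT (blue) and IL-13 KO (orange), with 95% intervals from limma. Filled points were called, open points were not, and an asterisk marks the probe sets under the filter. Fcer2a shows the widest gap between genotypes on the negative side, from 1.55 to 0.35 and from 2.22 to 0.09.

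For no member was the HDM effect called different between genotypes. The limma interaction was called for 0 of 11 probe sets, against 0.0856% of all probe sets, and 2 of 11 (Fcer2a and Pax5) had an unadjusted p under 0.05, as did 1797 of all. It was negative for 10 of 11, with a median of -0.28 against 0.01 over all. This shared sign depended on WT HDM replicate 3 and on WT PBS replicate 2. Without WT HDM replicate 3 the interaction was -0.06 for Cd79a, 0.05 for Cd79b and 0 for the first Ms4a1 probe set. It was 0.10 for Blnk, 0.12 for Pou2af1 and -0.06 for the brighter Cd22 probe set, while Fcer2a had -1.26 and Pax5 -0.54. Without WT PBS replicate 2 it was positive for Pou2af1 (0.19), Blnk (0.07), the second Ms4a1 probe set (0.07) and the dimmer Cd22 probe set (0.06). The others stayed negative there: Cr2 (-0.04), Cd79b (-0.07), the brighter Cd22 probe set (-0.08), the first Ms4a1 probe set (-0.16), Cd79a (-0.43), Pax5 (-0.66) and Fcer2a (-0.99). With all 12 samples, intervals were wide for some genes: -1.57 to 0.54 for Cd79a, -0.94 to 0.47 for Cd79b, -0.93 to 0.38 for the first Ms4a1 probe set, -0.65 to 0.55 for Blnk, -0.61 to 0.71 for Pou2af1 and -0.69 to 0.27 for the brighter Cd22 probe set. A difference of 1 or more on the log2 scale thus lies outside the interval for each of these but Cd79a.

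The genotypes were also compared within each treatment. After PBS all 11 probe sets had higher means in KO, 4 of them without overlap (Cd79a, Cd79b, Fcer2a and the brighter Cd22 probe set), against 5.5% of all probe sets higher without overlap. The median was 0.41 against -0.01 over all. None of the 11 was called by limma, against 0.0381% of all, and 6 had an unadjusted p under 0.05, as did 2145 of all. The largest differences were 0.82 for Cd79a (95% interval 0.07 to 1.56, adjusted p = 0.70), 0.72 for Pou2af1 and 0.60 for Cd79b (0.10 to 1.10, adjusted p = 0.66). WT PBS replicate 2 was below its group mean on all 10 tested set A probe sets, and it also had skeletal muscle signal and the lowest 5' to 3' actin ratio. Without it the differences were 0.73 for Cd79a, 0.58 for Pou2af1, 0.44 for Cd79b, 0.28 for the brighter Cd22 probe set and 0.22 for Fcer2a, and those of Cr2 and the second Ms4a1 probe set turned negative (-0.18 and -0.01).

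After HDM the members stood on both sides. Of 11, 7 had higher means in KO, with Pou2af1 higher without overlap (7.63% of all probe sets were) and Fcer2a lower without overlap (7.29% of all). None was called by limma, against 0.457% of all, and those 2 had an unadjusted p under 0.05, as did 2678 of all. The median was 0.15 against 0 over all. The first Ms4a1 probe set had 444 ± 162 in WT HDM and 426 ± 57.3 in KO HDM (difference -0.01, 95% interval -0.47 to 0.45). These differences depended on which WT HDM samples were kept. Without WT HDM replicate 3 the median was 0.30, with 0.76 for Cd79a, 0.65 for Cd79b and 0.27 for the first Ms4a1 probe set. With WT PBS replicate 2 and WT HDM replicates 1 and 2, which had skeletal muscle signal, left out, so that WT HDM replicate 3 is alone in its group, 10 of 11 were negative with a median of -0.29, among them Cd79a (-0.63), the first Ms4a1 probe set (-0.57) and Cr2 (-0.55). Pou2af1 remained positive (0.64) and Fcer2a negative (-0.67) there, also without a call. The actin ratio in WT HDM was 0.695 to 0.832, above that of KO HDM without overlap, and its part in these values was not tested.

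In several samples most members deviated from the group mean in the same direction. For each of the 10 tested set A probe sets the group mean was subtracted on the log2 scale, and the median deviation was taken per sample. It was 0.13, -0.30 and 0.22 in WT PBS, -0.17, -0.24 and 0.35 in WT HDM, 0.16, 0 and -0.15 in KO PBS, and -0.10, 0.15 and 0.02 in KO HDM. WT HDM replicate 3 was above its group mean on 9 of 10 probe sets and KO HDM replicate 1 on 0 of 10, whereas KO PBS replicates 2 and 3 (6 and 4 of 10) and KO HDM replicate 3 (5 of 10) were mixed. Fcer2a was the exception in WT HDM replicate 3, where its signal of 242 was the lowest of the group. As a description over 12 samples from the same arrays, deviations of Cd79a correlated with those of Cd79b (r = 0.81), the first Ms4a1 probe set (0.78) and the brighter Cd22 probe set (0.80), less with Blnk (0.56), and little with Pou2af1 (0.11) and Fcer2a (0.09).

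**Figure D3:**
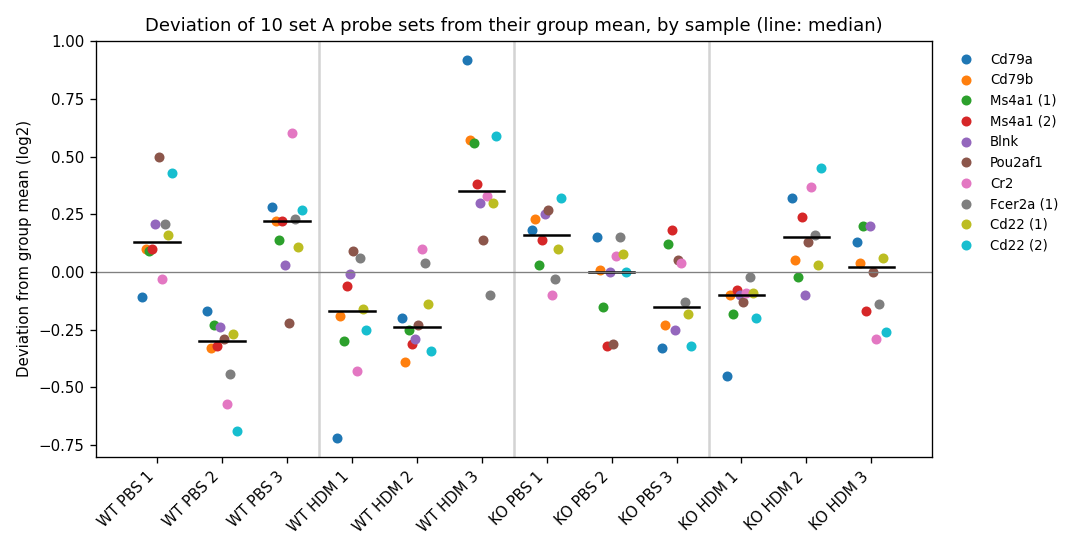
Deviation of 10 set A probe sets from their own group mean (log2, y axis) in each of the 12 samples (x axis), 1 colour per probe set, with a line at the sample's median. WT HDM replicate 3 stands highest with a median of 0.35 and WT PBS replicate 2 lowest with -0.30.

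A gene of lymph node vessels, picked after its values were seen, moved with these deviations. Glycam1 encodes a mucin-like protein of high endothelial venules, the vessels through which lymphocytes enter lymph nodes. Its signal, on a probe set under the filter, was 74.3, 1.82 and 77.1 in WT PBS, 3.19, 4.01 and 453 in WT HDM, 197, 3.31 and 1.14 in KO PBS, and 1.67, 57.6 and 3.14 in KO HDM. In 5 samples it was 57.6 or more, and in the other 7 it was 4.01 or less. The 5 had median member deviations of 0.13 or more, and the 7 of 0.02 or less. The signal was present in samples of every group, so it does not separate treatments or genotypes. Other genes of lymphoid tissue were mixed in WT HDM replicates 1, 2 and 3. Madcam1 had 67, 42.9 and 49.7, Chst4 29.4, 35 and 34.9, and Ccr7 43.3, 37.6 and 43.2. Cxcl13 had 241, 303 and 403, and Ltb 333, 345 and 483. How many of all probe sets follow the deviations as Glycam1 does was not tested.

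Further fits chosen after these values were seen give the HDM effect with Glycam1 taken into account. Glycam1 was picked with its link to the members' deviations known. As a covariate it therefore lowers their spread by construction, and a gain in calls is no support for the rises. With log2 Glycam1 signal as a covariate 9 of 11 probe sets were called in WT and 8 of 11 in KO, and the interaction was called for 0. Over all 31526 probe sets, in either direction, 2395 were called in WT and 2733 in KO with the covariate, against 2426 and 2698 without it. Cd79a then rose by 1.33 in WT (limma, adjusted p = 0.0052) and by 0.88 in KO (0.041), and the dimmer Cd22 probe set was called in both (1.10 and 0.90, adjusted p = 0.0076 and 0.022). Fcer2a kept 1.56 in WT (0.00057) and 0.36 in KO (0.30). Another fit left out the 5 samples with Glycam1 signal. This leaves 1 WT PBS sample, assumed to vary like the others, and the WT samples left (WT PBS replicate 2 and WT HDM replicates 1 and 2) are the 3 with skeletal muscle signal, the first of them also with the lowest actin ratio and the lowest member median. Cd79a (1.02, adjusted p = 0.21, limma), Cd79b (1.11, 0.051) and the second Ms4a1 probe set (1.36, 0.11) then lost their WT calls, and the last also its KO call (1.09, 0.095). Fcer2a was 2.04 (0.015) in WT and 0.25 (0.54) in KO.

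Genes outside the 9 were ranked by how closely they followed Cd79a within groups. Among 14547 set A probe sets of other single genes, the highest correlations of deviations over the 12 samples were those of Pdha1 and Stk17b (0.94 each), Gabarap (0.92), the B cell receptor kinase Syk (0.91), the T cell coreceptor chain Cd8b1 and Fars2 (0.90 each), and Scly and Tkt (0.89 each). Over all compared probe sets r had a median of 0 and a central 95% range of -0.73 to 0.69. These 8 were picked as the highest, so their values are a description of the ranking. Cd79a deviations spread most in WT HDM (-0.72, -0.20 and 0.92), where replicates 1 and 2 had skeletal muscle signal. The ranking, like the correlations with the members, therefore leans on that group. Syk rose after HDM in both genotypes (1.26 and 1.10, limma adjusted p = 0.00098 and 0.0026), Tkt in WT (0.63, 0.014), and Cd8b1 was not called (0.32 and 0.24, adjusted p = 0.60 and 0.68).

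Other genes of the B lineage were taken from lists. Of 28 further B cell identity genes 24 were on the arrays and tested, and 12 were called higher in WT and 5 in KO, with none lower (median 0.90 and 0.42). Cd83, an activation marker that dendritic cells share, rose by 2.09 in WT and 1.37 in KO (limma, adjusted p = 1e-04 and 0.0022). The transcription factor Ikzf3 rose by 1.90 and 1.71, the BAFF and APRIL receptor Tnfrsf13b (TACI) by 1.55 and 1.85, and Spib by 1.12 and 1.08. H2-DMb2, of the class II peptide loading complex, rose by 1.75 in WT (adjusted p = 0.0054) and had 0.77 in KO (0.18). Fcrl1, an Fc receptor-like protein of B cells, rose by 1.62 in WT (0.025) and had 0.07 in KO (0.94), with an interaction of -1.55 that was not called (0.78). In WT and KO its means were 18.5 and 52.8 after PBS and 62.6 and 53.7 after HDM, so the genotypes stood apart mainly after PBS. H2-DMb2 means were 379 and 689 after PBS and 1380 and 1160 after HDM. Cd72 completed the 5 called in KO. Some genes of the list went the other way or stayed level, without a lower call. Mean Ebf1 signal was 187 in WT PBS and 138 in WT HDM, and 179 in KO PBS and 140 in KO HDM. Bach2 had -0.15 in WT and -0.05 in KO, and Vpreb3 means of 107 and 107 in WT and 118 and 117 in KO. The summed signal of the list went from 4490 to 6830 in WT PBS to 11200 to 17700 in WT HDM, and from 5920 to 8300 in KO PBS to 12700 to 15000 in KO HDM. A large part of these sums came from Ighm, which was not called. Its means after PBS and HDM were 1310 and 5700 in WT and 1480 and 5780 in KO.

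Among 21 tested genes of B cell receptor signalling, 8 were called higher in WT, and 7 higher and 1 lower in KO (medians 0.51 and 0.54). The kinase Btk rose by 1.51 in WT and 1.46 in KO (limma, adjusted p = 0.0014 and 0.0018), Malt1 by 1.43 and 1.15 and the SYK substrate Hcls1 by 1.38 and 1.32. The inhibitory Fc receptor Fcgr2b rose by 0.77 and 1.47 (0.022 and 0.00045). Cd81, a tetraspanin with wide expression, was the 1 that fell in KO (-0.38 ± 0.10, adjusted p = 0.042), where 4.31% of all probe sets were called lower. Pik3ap1, an adaptor of this signalling, was called higher in KO than WT after HDM (0.69 ± 0.13, adjusted p = 0.042). Most of these genes also act in macrophages, mast cells or T cells.

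Plasma cell genes had higher medians than the members. Of 13 tested, 7 were called higher in WT and 9 in KO, with none lower (medians 1.47 and 2.14). Igk rose by 4.66 in WT and 4.91 in KO, the IgM and IgA joining chain Jchain by 3.54 and 4.01, Igha by 3.49 and 3.60 and the antibody assembly chaperone Mzb1 by 3.02 and 3.94 (limma, adjusted p = 7.4e-06 to 0.0017). Not every gene of this list had higher signal after HDM. Mean Sdc1 signal was 901 in WT PBS and 716 in WT HDM, and 905 in KO PBS and 805 in KO HDM, without a lower call. Prdm1 had 145 and 139 in WT and 161 and 161 in KO, and Creb3l2 434 and 427 in WT and 437 and 427 in KO. Immunoglobulin probe sets can cross-hybridise between related segments. Igha was called higher in KO than WT after HDM (1.66 ± 0.28, adjusted p = 0.019), with 1250, 1500 and 1800 in WT HDM and 4440, 3720 and 6560 in KO HDM. Summed plasma cell signal was 12000 to 16200 in WT HDM and 21900 to 26700 in KO HDM, the same order as for Pou2af1. After PBS the sums overlapped, with 4320 to 4930 in WT and 3840 to 5540 in KO. The list median for KO against WT after PBS was 0.02, where Pou2af1 had 0.72. The part of plasma cell signal in the Pou2af1 values was not tested. Ighm, in the B cell list, had 2.46 in WT and 2.31 in KO with a wide spread and was not called (0.054 and 0.064).

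**Figure D4:**
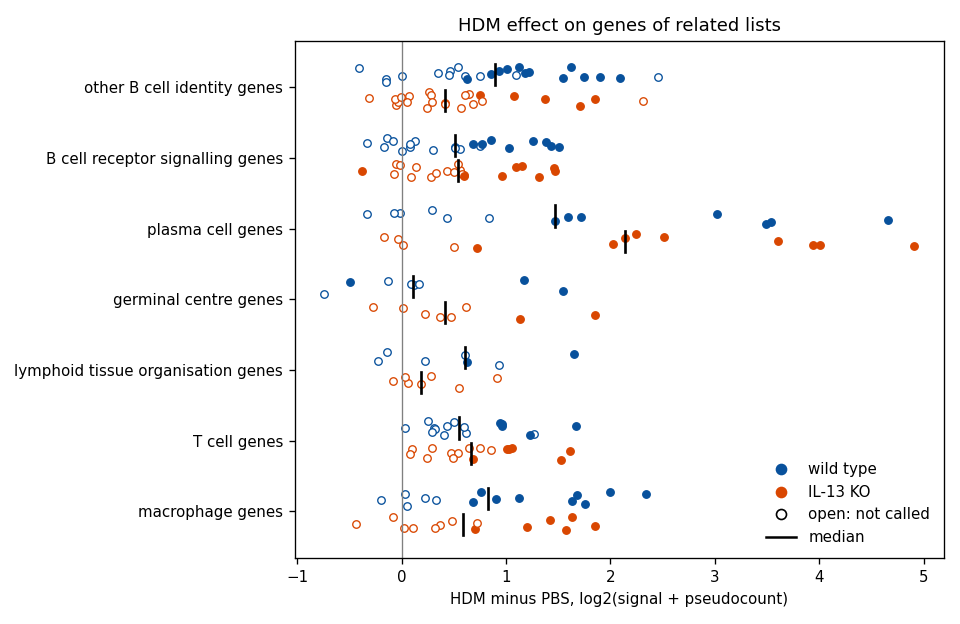
Difference between HDM and PBS samples on the log2(signal + pseudocount) scale (x axis) for genes of 7 related lists (y axis), in WT (blue) and IL-13 KO (orange), filled where called by limma, with a bar at each list's median. Plasma cell genes have the highest medians, 1.47 and 2.14, and other B cell identity genes have 0.90 and 0.42.

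Genes of B cell follicles and of lymphoid tissue were taken from lists as well. Of 8 tested germinal centre genes, Gpr183, which guides activated B cells, and Tnfrsf13b were called higher in both genotypes (Gpr183 by 1.17 and 1.13), and Lmo2, also expressed in endothelium, was called lower in WT (-0.49, limma adjusted p = 0.015), where 3.85% of all probe sets were called lower. Of 7 tested lymphoid tissue organisation genes Ltb (lymphotoxin beta) and Tnfsf13b (BAFF) were called higher in WT (1.65 and 0.63, adjusted p = 0.0019 and 0.024) and none in KO (0.55 and 0.19 for these, adjusted p = 0.23 and 0.51). The follicle chemokine Cxcl13 had 0.93 in WT and 0.91 in KO and was not called (0.077 and 0.078). Among 7 follicular dendritic cell genes Fcgr2b was higher in both, Clu lower in WT (-0.60, adjusted p = 0.039) and Bst1 higher in KO (0.87, 0.015). Of 7 B cell precursor genes 3 passed the filter and Il7r, which T cells express as well, was called in both (1.55 and 1.12), while Rag1 stayed between 0.91 and 24.6 and Vpreb1 between 1.92 and 22.3 in the 12 samples.

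Genes of other immune cells were called as well. T cell genes were called higher in 5 of 16 in WT and 6 of 16 in KO, with Cd4 up by 1.67 and 1.61 and Icos by 1.23 and 1.53, and their summed signal ran from 1570 to 1890 in WT PBS, 2370 to 3030 in WT HDM, 1910 to 2260 in KO PBS and 3360 to 3550 in KO HDM. Icos was also called higher in KO than WT after HDM (0.61, limma adjusted p = 0.040). Of 10 dendritic cell genes 3 were called higher in WT and 6 in KO. In the interaction, 1 gene of these lists was called, the macrophage and dendritic cell integrin Itgax (-0.92, adjusted p = 0.048). Of 6 tested skeletal muscle genes limma called 0 after HDM in either genotype (0 and 1 at an unadjusted p under 0.05), but muscle RNA was uneven: Tnnc2 was 413 in WT PBS replicate 2, 198 in WT HDM replicate 1 and 988 in WT HDM replicate 2, and 2.53 to 6.97 in the other samples. The members were also fitted without those 3 samples. The single WT HDM sample this leaves, assumed to vary like the others, is replicate 3, with the highest Glycam1 signal and member median, and both remaining WT PBS samples also have Glycam1 signal. Cd79a was then 2.15 and Cd79b 1.48 in WT (limma, adjusted p = 0.011 and 0.0078).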

How the data were processed

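Lung RNA of 12 mouse samples was measured on 24 Affymetrix arrays, a pair (set A and set B) per sample. The deposited values are linear intensities, 1 per probe set and array, which the authors had scaled to a common level: all arrays had a mean of 150 once the top and bottom 2% were trimmed. The software is not given in the sources used here. Sample groups came from the titles. From the authors' intensities, log2(value + pseudocount) was computed (pseudocount 7 for set A, 11 for set B, the 10th percentile), so fold changes of dim probe sets are understated. Probe sets with a mean log2 under the 30th percentile of their set (signals of about 32 and 38.9) were left out, as were control probe sets and the second copy of 100 probe sets on both sets, which left 15838 and 15688. Set A arrays had median signals of 69.5 to 77.7, set B arrays of 83.5 to 93.7, and samples of a group correlated with Spearman coefficients of 0.962 to 0.98 on set A. The number of arrays limits the precision.

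A single limma 3.58.1 model (R 4.3.3) of the 4 groups, with 8 residual degrees of freedom and eBayes with a trend, gave 5 comparisons: HDM against PBS in each genotype, their difference, and KO against WT after each treatment. It was tested on simulated data. The genes and lists were chosen with earlier results of these data known. All member probe sets were reported. Of each list up to 4 called genes with the largest change per HDM comparison, or otherwise the 2 with the smallest p, and up to 2 called in other comparisons, were eligible to be named, each gene by its probe set of highest mean; other names were chosen after their values were seen. Genes most like Cd79a were the 8 with the highest correlation of within-group deviations. Alternatives changed the pseudocount, filter, normalization, trend, replicate block and samples.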

Additional observations from a re-analysis of the deposited data

How the results depend on the processing

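Each count of called members was recomputed under 23 alternatives, and the direction of every called member held in all of them. In WT and KO the counts were 8 and 6 of 11 with a pseudocount of 1 or quantile normalization, and 9 and 6 of 12 with 4 times the pseudocount. Without the filter they were 8 and 6 of 13. There Cd79a lost its WT call and Cd79b its KO call, while the dim Fcer2a (WT) and Pax5 (KO) probe sets entered as called. A filter at the 50th percentile gave 7 and 5 of 9, and a fit without the eBayes trend 7 and 5 of 11. The counts were 6 and 5 of 12 without the 2 samples with the lowest actin ratio, an alternative chosen after the data were seen. Over all probe sets 2426 and 2698 were called in the main fit, in either direction, and 1408 and 1781 without those 2 samples. Leaving out 1 sample at a time gave 7 to 9 in WT, 4 to 6 in KO, 0 to 0 for the interaction and for KO against WT after PBS, and 0 to 1 for KO against WT after HDM, where the 1 was Fcer2a without WT PBS replicate 2. With the replicate number as a block the counts were 8 and 6. The numbers do not pair the samples: of 18 same-numbered pairs 4 had deviations correlated over 0.1 (range -0.13 to 0.18). Counted over members, comparisons and alternatives, 28 values lost and 5 gained a call, 1222 kept their side of the threshold and 0 called values reversed, while 44 values that were not called changed sign. Blnk, Pou2af1, the first Ms4a1 probe set and the brighter Cd22 probe set kept both calls in all 23, as Fcer2a did in WT. The Cd79a call in WT held in 14 of 23 and the Cd79b call in KO in 13. The dimmer Ms4a1 probe set lost its WT call without the 3 samples with muscle signal (adjusted p = 0.053) and, like Cd79a and Cd79b, without the 2 with low actin ratio (0.057, 0.11 and 0.074) and without the 5 with Glycam1 signal (0.11, 0.21 and 0.051). Fits with samples left out also have fewer samples, and the cause of these losses was not tested. Depth is not defined for arrays, and the number of arrays limits the precision.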
